A study of Homo sapiens with 24 samples.

Results

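The genes described here store, import, export or sense cellular iron, or set how easily cells die by ferroptosis, the iron-dependent form of cell death that runs on peroxidized membrane lipids. They are FTH1, FTL and NCOA4 (storage), TFRC and SLC11A2 (uptake), SLC40A1 (export), IREB2 (sensing), GPX4 and AIFM2 (guards against ferroptosis) and ACSL4 (a driver of it). They were matched by symbol to the Ensembl identifiers of the deposited count tables and are 10 of the 58051 genes listed there. The study asked which transcripts Ocoxin, a nutritional mixture with plant extracts, alters in cancer cells, and RNA was sequenced from 24 libraries of 4 human cell lines. The lines were SW620, colorectal adenocarcinoma (COAD), BxPC-3, pancreatic adenocarcinoma (PAAD), LNCaP, prostate adenocarcinoma (PRAD), and HCC-70, triple negative breast cancer (TNBC), each with 3 control and 3 Ocoxin libraries, so that each cancer is represented by 1 line. Treated cells received Ocoxin for 48 h in medium with 1% serum, at a dilution of 1:700 in COAD and TNBC, 1:500 in PAAD and 1:50 in PRAD, and RNA was taken from the cells that still adhered. The control libraries, told apart by their titles, are described by the study as untreated, although their treatment labels carry the dilution of their line as well. Their medium is not described further in the sources used here, nor is whether the 3 libraries of a group came from separate cultures, so the p-values measure the spread between these libraries, which may be technical.

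Iron enters most cells bound to transferrin through the transferrin receptor, is carried out of the endosome by a divalent metal transporter, and is then used, exported by ferroportin, or stored inside ferritin, a shell of heavy and light chains. Iron regulatory proteins, 1 of them encoded by IREB2, bind a short hairpin in messenger RNAs when iron is scarce: in the 5′ UTR of ferritin and ferroportin mRNAs the bound protein blocks translation, and in the 3′ UTR of the transferrin receptor mRNA it protects the transcript from decay. Free iron feeds lipid peroxidation, which GPX4 and the product of AIFM2 counter and which ACSL4 favours by loading polyunsaturated fatty acids into membranes. RNA-seq reads the transcript level alone, so the translational arm of this control is not visible in these data.

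The hairpins are shown because they divide the genes into those that carry this element and those in which it was not found. The UTRs of the MANE Select transcripts (GENCODE release 44, hg38) were searched on the transcript strand for a C, 5 bases, the loop CAGTGN and 5 bases, where the 5 bases on both sides of the loop can pair (A-T, G-C or G-T). A hairpin of this kind was found in 4 of the 10 genes, 7 hairpins in all, with 1 each in the 5′ UTRs of FTH1, FTL and SLC40A1 and 4 in the 3′ UTR of TFRC. Capitals mark the bulged C and the loop, and each sequence is given 5′ to 3′ on the strand of the gene.
FTH1, 5′ UTR, chr11:61967575-61967601, minus strand: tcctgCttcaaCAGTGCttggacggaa
FTL, 5′ UTR, chr19:48965336-48965362, plus strand: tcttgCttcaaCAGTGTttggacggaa
SLC40A1, 5′ UTR, chr2:189580662-189580688, minus strand: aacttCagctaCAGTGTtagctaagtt
TFRC, 3′ UTR, chr3:196050980-196051006, minus strand: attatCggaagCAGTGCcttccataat
TFRC, 3′ UTR, chr3:196050576-196050602, minus strand: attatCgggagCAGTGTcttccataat
TFRC, 3′ UTR, chr3:196050511-196050537, minus strand: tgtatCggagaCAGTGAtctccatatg
TFRC, 3′ UTR, chr3:196050464-196050490, minus strand: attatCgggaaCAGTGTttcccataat
The same search found a hairpin in 0.101% of 18763 5′ UTRs and in 0.644% of 18780 3′ UTRs, and 4 of those 3′ UTRs held 2 or more. Among 2487 3′ UTRs whose length was near that of TFRC (2658 bases), 0.724% held at least 1. The letters were not in the UTRs searched of the other 6 genes, SLC11A2 among them, whose other transcripts were not searched. Hairpins with another loop or with unpaired bases beside it do not match this pattern, so the search does not show that these genes lack the element. A match is a description of the sequence and not evidence that it was bound.

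The depth was 25160757 to 34397801 counts per library in COAD, 31101178 to 34231106 in PAAD, 36863490 to 39009959 in TNBC and 9063968 to 9520969 in PRAD. PRAD was counted in a separate run with other settings, and in its libraries no gene passed 0.995 counts per exonic base, against at least 34.1 at the top of each other library, so that levels were not compared between PRAD and the other lines. The markers followed the labelled lines in part: control libraries held on average 526 CPM of VIL1 in COAD, 403 CPM of KLK3 in PRAD and 3133 and 1600 CPM of KRT5 in PAAD and TNBC, where CPM are counts scaled to a common library size with TMM factors. KRT5, a basal breast marker, was thus higher in PAAD than in TNBC and does not set TNBC apart from PAAD. The same held for KRT17, at 2344 CPM in PAAD and 262 CPM in TNBC. The basal markers KRT14 and KRT6B were higher in TNBC (101 and 361 CPM) than in PAAD (23.8 and 7.38 CPM). Of the receptors that are low or absent in triple negative cells, ERBB2 averaged 248 CPM, ESR1 6.85 CPM and PGR 0 CPM in the TNBC controls. In the COAD and PAAD controls ERBB2 averaged 124 CPM each. The colon genes CDX1, LGALS4 and GPA33 averaged 0.67 CPM or less in the COAD controls. CDX2 and CDH17 averaged 16.7 and 12.2 CPM there, against 3.06 and 0.27 CPM in the PAAD controls. Of 5 genes of leukocytes, fibroblasts and endothelium, PTPRC averaged 0.07 CPM or less in the controls of every line, while CD14 was at 134 CPM in TNBC. COL1A1 was at 9.14 to 15.5 CPM in COAD, PAAD and TNBC and, counted apart, at 51.1 CPM in PRAD. COL3A1 was at 3.52 CPM or less in COAD, PAAD and TNBC and at 14.8 CPM in PRAD, and PECAM1 at 0.07 to 4.14 CPM. In Ocoxin libraries COL3A1 averaged 1.10 CPM in PAAD and 8.87 CPM in PRAD. Their part in the results was not tested.

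As counted, ferritin light chain was the highest of the 10 transcripts per length in all 4 lines. Its rank against FTH1 is not settled, since FTH1 was counted only in part, as described below. Control libraries held FTL at 415 ± 25.5 CPM per kb of exon in COAD, 1302 ± 105 in PAAD, 965 ± 36.4 in TNBC and 79.4 ± 1.15 in PRAD (mean ± SD, n = 3 here and for all levels below). Ferroportin, SLC40A1, was the lowest in COAD, TNBC and PRAD (5.86 ± 0.610, 4.63 ± 0.188 and 1.18 ± 0.194 CPM per kb), and AIFM2 was the lowest in PAAD (4.42 ± 0.391 CPM per kb). Between these ends came TFRC, NCOA4 and GPX4, from 33.3 to 143 CPM per kb over all lines, and then SLC11A2, IREB2, ACSL4 and, outside PAAD, AIFM2, in an order that differed between lines. Some neighbours in this order overlapped between libraries, namely NCOA4 (79.2 to 93.0 CPM per kb) and GPX4 (77.4 to 90.5) in COAD, GPX4 (110 to 153) and NCOA4 (118 to 120) in PAAD, SLC11A2 (14.1 to 14.5) and IREB2 (12.4 to 14.9) in PAAD, SLC11A2 (6.92 to 7.35) and IREB2 (6.52 to 7.41) in TNBC, NCOA4 (50.4 to 53.1) and GPX4 (49.4 to 64.6) in TNBC, and NCOA4 (47.7 to 50.7) and TFRC (47.4 to 50.1) in PRAD.

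**Figure D1:**
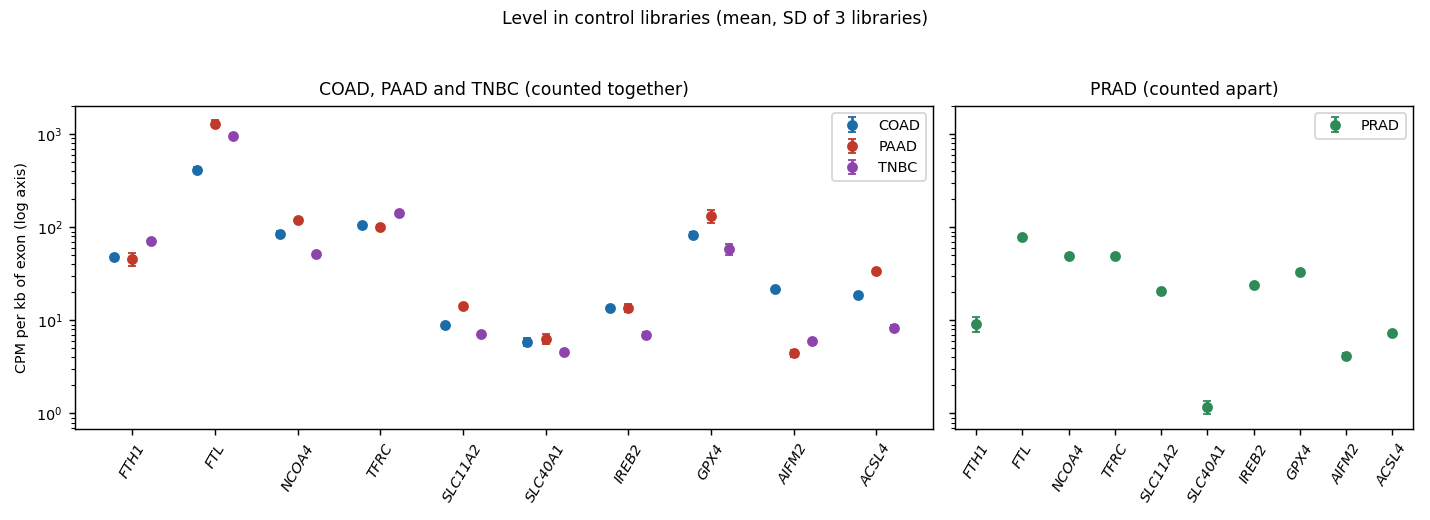
Level of each gene in control libraries, in CPM per kb of exon on a log axis, as mean (point) and SD (bar) of 3 libraries, with COAD, PAAD and TNBC on the left and PRAD, which was counted apart, on the right. FTL lies at the top of every line, SLC40A1 at the bottom of COAD, TNBC and PRAD, and the points of AIFM2 and ACSL4 lie far apart between lines.

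FTH1 could not be placed in this order. Of its 2030 exonic bases on chromosome 11 (61959718 to 61967660, minus strand), 1267 bases or 62.4% also lie in exons of BEST1 in the annotation of the count tables, and the counting discarded reads that touch exons of more than 1 gene without using the strand. In addition, 25 annotated FTH1 pseudogenes took 52.3% to 62.9% of the counts of FTH1 and these pseudogenes in the COAD, PAAD and TNBC libraries and 31.1% to 41.5% in PRAD. The 48.5 ± 1.67, 45.6 ± 7.16, 71.1 ± 4.13 and 9.25 ± 1.68 CPM per kb measured for FTH1 in COAD, PAAD, TNBC and PRAD are therefore parts of its signal. For FTL, 16 pseudogenes took 5.70% to 6.38% of the family's counts in COAD, PAAD and TNBC and 12.1% to 15.2% in PRAD, and no exonic base was shared. AIFM2 shared 11 bases with MACROH2A2 and ACSL4 78 bases with KCNE5, and the other 7 genes shared none.

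The control libraries of COAD, PAAD and TNBC differed in most of these transcripts, as in most transcripts altogether. By edgeR's quasi-likelihood test with Benjamini-Hochberg adjustment over all genes, 6 of the 10 genes differed between COAD and PAAD, where 78.6% of all genes tested did. All 10 differed between COAD and TNBC (82.8% of all genes) and all 10 between PAAD and TNBC (77.1% of all genes). These shares are near the background, so the sizes are of more use than the counts. The widest gap was in AIFM2, which encodes the ubiquinone reductase FSP1. On a common scale its control libraries held 21.7 ± 0.628 CPM per kb in COAD, 4.42 ± 0.391 in PAAD and 6.03 ± 0.0911 in TNBC. No library of 1 line overlapped those of another, and COAD stood 4.92-fold above PAAD (log2 difference 2.30, SE 0.07) and 3.60-fold above TNBC (1.85, SE 0.07). ACSL4 took another order: its control libraries held 18.4 to 19.6 CPM per kb in COAD, 31.7 to 35.5 in PAAD and 7.70 to 8.92 in TNBC. PAAD was thus highest and TNBC lowest, 4.09-fold apart (log2 difference 2.03, SE 0.06).

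Among the storage genes, FTL was 3.14-fold higher in PAAD than in COAD (log2 difference COAD minus PAAD -1.65, SE 0.06) and 1.35-fold higher in PAAD than in TNBC (0.43, SE 0.06). NCOA4, the receptor that takes ferritin to the lysosome, was also highest in PAAD, 2.31-fold above TNBC (log2 1.20, SE 0.06). TFRC was highest in TNBC, 1.35-fold above COAD and 1.43-fold above PAAD. The divalent metal transporter SLC11A2 was 1.98-fold higher in PAAD than in TNBC, and IREB2 was 1.93-fold higher in COAD and 1.95-fold higher in PAAD than in TNBC. GPX4, the peroxidase that reduces lipid hydroperoxides, was 2.28-fold higher in PAAD than in TNBC (log2 1.19, SE 0.14). The 4 genes that did not differ between COAD and PAAD were FTH1 (log2 difference 0.09, adjusted p = 0.356), TFRC (0.09, adjusted p = 0.129), SLC40A1 (-0.12, adjusted p = 0.253) and IREB2 (-0.02, adjusted p = 0.813), by the same edgeR test.

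The number of these transcripts altered by Ocoxin depended on the test used. All 10 genes passed the filter on low counts in every line. At an adjusted p under 0.05 in edgeR, 1 of 10 was altered in COAD (2.55% of all genes tested), 2 of 10 in PAAD (8.33%), 1 of 10 in TNBC (21%) and 0 of 10 in PRAD (2.98%). In each line, TNBC included, 1 or 2 genes of 10 decide how this count compares with the background. At an unadjusted p under 0.05, 6 of the 10 passed in COAD (16% of all genes), 4 in PAAD (22.8%), 4 in PRAD (20.8%) and 4 in TNBC (33.6%). DESeq2 called 3 in PAAD (10.8% of all genes), 2 in COAD (3.6%), 1 in TNBC (24.2%) and 1 in PRAD (3.48%). The median log2 fold change of the 10 genes ran from -0.0119 in COAD to 0.0146 in PAAD, and that of all genes lay within this range in every line. Same-numbered libraries deviated together in TNBC, PAAD and PRAD. With the replicate number as a block, 5 of the 10 genes were altered in PAAD (23.1% of all genes), 2 in PRAD (8.5%) and 5 in TNBC (33.9%). In bulk RNA, a change in a transcript per cell and a change in which cells remained cannot be told apart.

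**Figure D2:**
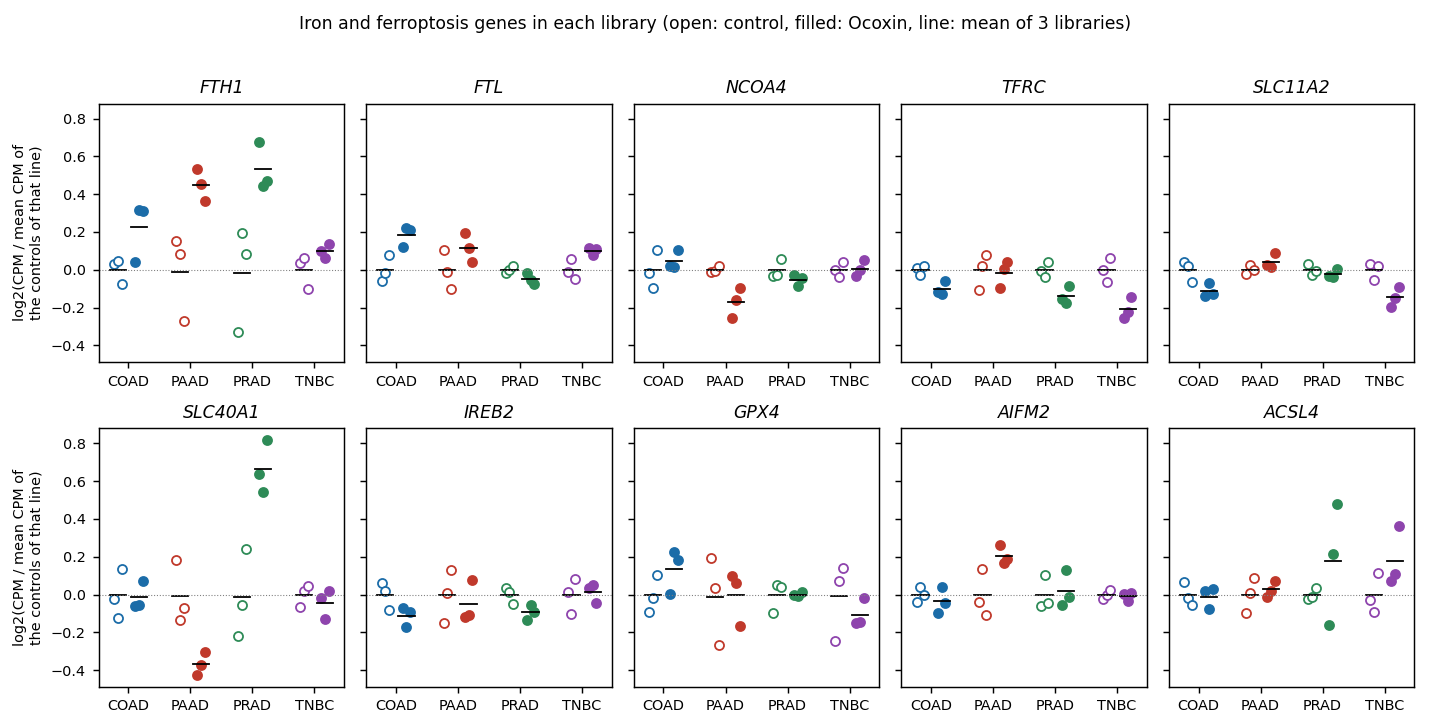
Each library's CPM divided by the mean CPM of the controls of its cell line, on a log2 scale, for each of the 10 genes. Open points are control libraries, filled points Ocoxin libraries and black lines the mean of 3. The filled points of FTH1 lie clear of the open ones in PAAD and PRAD, and those of SLC40A1 lie below the controls in PAAD and above them in PRAD.

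The ferritin chains moved upward in part of the lines. FTH1 encodes the heavy chain, which oxidizes iron for storage, and it rose in PAAD (as did 4.72% of all genes, with 3.62% lower): the control libraries held 96.6, 92.0 and 71.9 CPM and the Ocoxin libraries 125, 119 and 112 CPM. Every Ocoxin library stood above every control, and the control library of replicate 3 was the lowest. The log2 fold change was 0.45 (SE 0.09, adjusted p = 0.00512, edgeR), and the call stood with each library left out (adjusted p at most 0.0376). Without the control library of replicate 3 the log2 fold change was 0.33, and with the counts of the 25 pseudogenes added to FTH1 it was 0.37 (adjusted p = 0.00161).

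In PRAD, FTH1 was at 14.9, 21.5 and 19.9 CPM in control and 30.0, 25.5 and 26.0 CPM in Ocoxin libraries, from 137 to 281 counts. These groups did not overlap either, as in 27.5% of genes with a mean of at least 1 CPM in this line, and the log2 fold change of 0.53 (SE 0.14) did not pass edgeR (adjusted p = 0.0866), while DESeq2 gave an adjusted p of 0.0475. In COAD, FTH1 was at 111, 112 and 103 CPM in control and 112, 135 and 135 CPM in Ocoxin libraries. The Ocoxin library of replicate 1 lay among the controls, and the log2 fold change was 0.23 (SE 0.07, adjusted p = 0.0828 in edgeR and 0.0441 in DESeq2). Without that library it was 0.32 and passed (adjusted p = 0.000923). In TNBC the values were 146, 149 and 133 CPM in control and 153, 149 and 157 CPM in Ocoxin libraries, a log2 fold change of 0.10 (SE 0.05, adjusted p = 0.155, and 0.0249 with the block).

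FTL encodes the light chain, which helps the iron core to form. It was altered in COAD, from 385, 396 and 424 CPM in control to 436, 468 and 465 CPM in Ocoxin libraries. The groups did not overlap, as in 22% of genes with a mean of at least 1 CPM in this line, and the rise was small, 0.18 on the log2 scale (SE 0.05, adjusted p = 0.0475, edgeR). This call was lost without the control library of replicate 1 (adjusted p = 0.288) or 2 (0.206) and without the Ocoxin library of replicate 2 (0.227) or 3 (0.0905), with log2 fold changes of 0.16 to 0.23 over all omissions. In TNBC, FTL was at 830, 872 and 810 CPM in control and 908, 883 and 902 CPM in Ocoxin libraries, again without overlap (log2 fold change 0.10, SE 0.03, adjusted p = 0.0565 in edgeR). With the replicate block this passed (adjusted p = 0.00200), as it did without the control library of replicate 2 (0.0302). In PAAD the log2 fold change was 0.12 (SE 0.06, adjusted p = 0.263, and 0.00368 with the block).

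In PRAD, FTL was at 68.8, 69.5 and 70.8 CPM in control and 68.8, 67.2 and 66.1 CPM in Ocoxin libraries (log2 fold change -0.05, SE 0.04, adjusted p = 0.582, edgeR). Its counts there were 0.680 to 0.745 per exonic base, close to the limit of 0.995 in these libraries, and with the counts corrected for reads with the same start the log2 fold change was -0.11 (adjusted p = 0.294). Any further part of the counting in this value was not tested.

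The balance of both chains within a library does not depend on the scaling, but it does depend on the counting. FTH1 was counted only in part, and in PAAD its pseudogenes took on average 59.6% of the family's counts in control and 57.1% in Ocoxin libraries. FTL in PRAD lay close to the limit of counts per exonic base. The part of the counting in the ratios was not tested. The log2 ratio of FTH1 to FTL counts was -3.64 ± 0.139 in PAAD controls and -3.29 ± 0.00832 in PAAD Ocoxin libraries, and -1.91 ± 0.263 and -1.31 ± 0.103 in PRAD (SD, n = 3). The ratio was thus higher in all 3 Ocoxin libraries than in any control in these lines, with a two-sided exact permutation p of 0.1 in each, the smallest that 3 against 3 libraries can give. It differed by 0.04 in COAD (exact p = 0.5) and by -0.00 in TNBC (exact p = 1), where the groups overlapped.

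**Figure D3:**
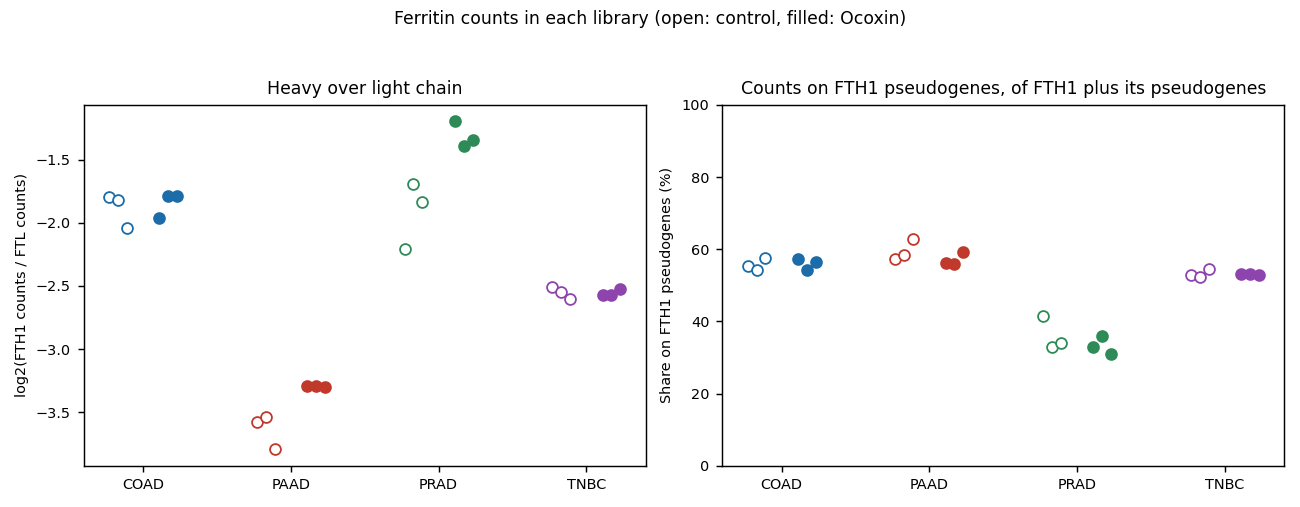
Left, log2 ratio of FTH1 to FTL counts in each library; right, percent of the counts of FTH1 and its 25 pseudogenes that fell on the pseudogenes. Open points are control and filled points Ocoxin libraries. The ratio is higher with Ocoxin in PAAD and PRAD without overlap, and the pseudogene share is over 52% in every COAD, PAAD and TNBC library.

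NCOA4 did not pass in edgeR without the block in any line. In PAAD it was at 453, 454 and 462 CPM in control and 383, 408 and 427 CPM in Ocoxin libraries, without overlap (as in 30.1% of genes with a mean of at least 1 CPM there). The log2 fold change of -0.17 (SE 0.05) had an adjusted p of 0.0697 in edgeR, 0.0378 in DESeq2 and 0.000342 with the block. Without the Ocoxin library of replicate 3 it was -0.21 (adjusted p = 0.0406). In COAD, PRAD and TNBC its log2 fold changes lay between -0.05 and 0.05.

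TFRC, the transferrin receptor, fell in TNBC, as did 11.3% of all genes. Control libraries held 1119, 1071 and 1166 CPM and Ocoxin libraries 939, 958 and 1012 CPM, so that no library overlapped, as in 42.5% of genes with a mean of at least 1 CPM in this line. The log2 fold change was -0.21 (SE 0.04, adjusted p = 0.00307, edgeR), a decrease of 13.3%, and it passed with each library left out (adjusted p at most 0.0237). TFRC was also below all controls in PRAD, at 382, 374 and 395 CPM in control and 345, 339 and 362 CPM in Ocoxin libraries (log2 fold change -0.14, SE 0.04, adjusted p = 0.0954, and 0.0371 with the block). In COAD it was at 932, 907 and 937 CPM in control and 854, 848 and 889 CPM in Ocoxin libraries, again without overlap (-0.10, SE 0.04, adjusted p = 0.252). In PAAD the groups overlapped, with a log2 fold change of -0.02 (SE 0.06, adjusted p = 0.901).

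SLC11A2, which carries ferrous iron across membranes, did not pass in edgeR without the block in any line. In TNBC it was at 71.3, 67.2 and 70.8 CPM in control and 60.9, 62.9 and 65.6 CPM in Ocoxin libraries, without overlap. The log2 fold change of -0.14 (SE 0.05) had an adjusted p of 0.0511 in edgeR, 0.00619 with the block and 0.0238 without the Ocoxin library of replicate 3. In COAD the log2 fold change was -0.11 (SE 0.05, adjusted p = 0.296), and in PAAD and PRAD it was 0.04 and -0.02.

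SLC40A1 encodes ferroportin, the iron exporter of the cell membrane, and it went opposite ways in PAAD and PRAD. In PAAD it fell, from 29.4, 23.5 and 24.6 CPM in control to 19.2, 19.96 and 20.9 CPM in Ocoxin libraries. All Ocoxin libraries were below all controls, and the control library of replicate 1 was the highest. The log2 fold change was -0.37 (SE 0.09, adjusted p = 0.0209, edgeR). The call was lost without that library (-0.27, adjusted p = 0.0952) and without the Ocoxin library of replicate 1 (-0.34, 0.0987) or 2 (-0.36, 0.0862). In PRAD the transcript was low, with 40, 46 and 55 counts in control and 74, 69 and 81 in Ocoxin libraries, or 4.36, 4.89 and 6.01 against 7.91, 7.40 and 8.96 CPM. All Ocoxin libraries were above all controls, and the log2 fold change of 0.67 (SE 0.16) had an adjusted p of 0.0732 in edgeR, 0.186 in DESeq2 and 0.0289 with the block. In COAD (-0.01, SE 0.08) and TNBC (-0.04, SE 0.07) the groups overlapped.

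The difference in the SLC40A1 response was tested by an interaction term over the 24 libraries together, which was added after the values had been seen. The log2 response in PRAD exceeded that in PAAD by 1.01 (SE 0.19, adjusted p = 0.00122, edgeR), where 3.29% of all genes passed, and that in TNBC by 0.69 (SE 0.19, adjusted p = 0.0331), where 3.59% did. Over COAD the excess was 0.65 (SE 0.19, adjusted p = 0.106), where 0.832% of all genes passed. No other of the 10 genes passed in this fit. The FTL response in PRAD minus that in COAD was -0.26 (SE 0.08, adjusted p = 0.104, edgeR). With the PRAD counts corrected for reads with the same start it was -0.30 (SE 0.08, adjusted p = 0.0464, edgeR). The dilution was 1:50 in PRAD and 1:500 in PAAD and the counting differed too, so line, dose and counting run cannot be told apart.

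Among COAD, PAAD and TNBC, none of the 10 genes passed the interaction test in edgeR without the block. Of all genes, 3.96% (COAD against PAAD), 7.85% (COAD against TNBC) and 4.56% (PAAD against TNBC) did. At an unadjusted p under 0.05 the counts were 4 (17.6% of all genes), 0 (21.6%) and 6 (16.9%). DESeq2, which called 10.3%, 16.5% and 10.5% of all genes in these comparisons, called NCOA4 between COAD and PAAD (log2 difference 0.23, adjusted p = 0.0372), and FTH1 (0.36, adjusted p = 0.0473) and SLC11A2 (0.20, adjusted p = 0.0199) between PAAD and TNBC. With the replicate block, 3 of the 10 genes differed between COAD and PAAD (12.9% of all genes) and 2 between COAD and TNBC (18.2%). Replicate numbers did not pair the COAD libraries, so both counts rest on a block that did not hold in COAD. PAAD and TNBC differed with the block in 5 of the 10 genes and in 12.5% of all genes. They were FTH1 (0.35, adjusted p = 0.0221), NCOA4 (-0.18, 0.010), TFRC (0.19, 0.00159), SLC11A2 (0.18, 0.0313) and SLC40A1 (-0.33, 0.0332), as log2 response in PAAD minus that in TNBC. COAD and TNBC had the same dilution, and the log2 responses of FTH1 there differed by 0.14 (SE 0.12, adjusted p = 0.576) and those of TFRC by 0.11 (SE 0.07, adjusted p = 0.370).

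IREB2 encodes an iron regulatory protein whose amount is set mainly by degradation. Its transcript did not pass in any line. The log2 fold changes were -0.11 (SE 0.05, adjusted p = 0.290) in COAD, -0.05 (SE 0.07, 0.756) in PAAD, -0.09 (SE 0.04, 0.204) in PRAD and 0.01 (SE 0.05, 0.902) in TNBC, all by edgeR. In PRAD the 3 Ocoxin libraries (236, 249 and 243 CPM) lay below the 3 controls (265, 262 and 250 CPM).

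The guards against ferroptosis moved little. GPX4 had log2 fold changes of 0.14 (SE 0.06, adjusted p = 0.262) in COAD, 0.00 (SE 0.09, 0.993) in PAAD, -0.00 (SE 0.05, 1.00) in PRAD and -0.10 (SE 0.10, 0.513) in TNBC. Its libraries overlapped between groups in all 4 lines, with values of 62.9, 69.7 and 69.3 CPM in control and 67.1, 66.8 and 67.8 CPM in Ocoxin libraries of PRAD. In TNBC the control library of replicate 1 (98.6 CPM) stood below the others (123 and 129 CPM), and the Ocoxin libraries held 105, 106 and 115 CPM. Without that control library the log2 fold change was -0.21 (adjusted p = 0.0284). In COAD, without the Ocoxin library of replicate 1, GPX4 was 0.21 higher on the log2 scale (adjusted p = 0.0379).

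AIFM2 was at 20.7, 23.4 and 19.8 CPM in PAAD controls and 25.5, 23.9 and 24.2 CPM in PAAD Ocoxin libraries. The Ocoxin libraries lay above the controls by a narrow margin, and the log2 fold change of 0.21 (SE 0.08) had an adjusted p of 0.154 in edgeR and 0.0303 with the block. In the other lines its log2 fold changes lay between -0.03 and 0.02 and the groups overlapped.

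ACSL4, an acyl-CoA ligase that directs arachidonic acid into phospholipids, was spread widely among the Ocoxin libraries of PRAD (42.5, 55.1 and 66.3 CPM) beside 46.8, 47.1 and 48.6 CPM in control, and its log2 fold change of 0.20 (SE 0.14) did not pass (adjusted p = 0.474, edgeR). In TNBC it was at 51.2, 48.9 and 56.6 CPM in control and 54.8, 56.2 and 67.1 CPM in Ocoxin libraries (0.19, SE 0.08, adjusted p = 0.138). With the replicate block this passed (adjusted p = 0.000962). In COAD and PAAD the log2 fold changes were -0.01 and 0.03.

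**Figure D4:**
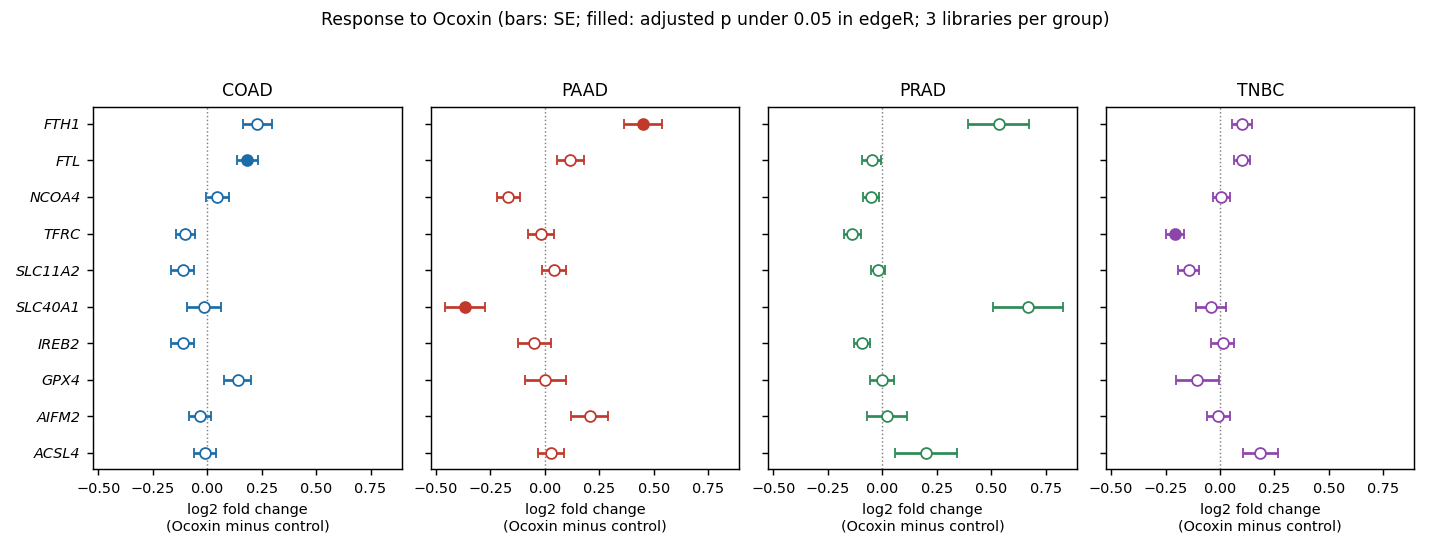
Log2 fold change (Ocoxin minus control) of the 10 genes in each line, with SE as bars. Filled points passed an adjusted p of 0.05 in edgeR without the block. They are FTL in COAD (0.18), FTH1 (0.45) and SLC40A1 (-0.37) in PAAD and TFRC in TNBC (-0.21), and PRAD has none.

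Around these genes, 66 other genes of iron and ferroptosis pathways were followed, and their calls are read against the shares of all genes given above. By edgeR, 3 of 58 tested were altered in COAD (all higher, where 1.47% of all genes were higher and 1.09% lower), 7 of 58 in PAAD (5 higher, 2 lower), 18 of 61 in TNBC (12 higher, 6 lower, where 9.65% and 11.3% of all genes were) and 9 of 57 in PRAD (8 higher, 1 lower, where 2.4% and 0.58% were). The medians of their log2 fold changes were -0.00 in COAD, -0.02 in PAAD, 0.04 in TNBC and 0.04 in PRAD.

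Iron sensing held the 2 genes ACO1, which encodes the other iron regulatory protein, and FBXL5, the iron-binding subunit of the ubiquitin ligase that marks the IREB2 product for degradation. ACO1 did not pass in any line, with log2 fold changes between -0.07 and 0.07. FBXL5 rose in TNBC from 72.9 to 80.4 CPM in control to 117 to 125 CPM in Ocoxin libraries (log2 fold change 0.65, SE 0.05, adjusted p = 4.47e-06, edgeR). It also rose in COAD, from 39.9 to 42.2 CPM to 51.5 to 55.7 CPM (0.40, SE 0.06, adjusted p = 0.000999), and in PRAD, from 107 to 117 CPM to 128 to 136 CPM (0.25, SE 0.05, adjusted p = 0.0411). The call in PRAD was lost whichever of the 6 libraries was left out (adjusted p 0.0668 to 0.177) and in DESeq2 (0.0687). In PAAD it was -0.09 (SE 0.06, adjusted p = 0.455). Beside these values stand the log2 fold changes of the IREB2 transcript itself, from -0.11 to 0.01.

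Of the export and hepcidin genes, 4 were tested in COAD, PAAD and TNBC and 3 in PRAD, with median log2 fold changes of -0.25, -0.39, -0.01 and 0.18 in COAD, PAAD, TNBC and PRAD. These medians rest in part on barely detected transcripts, such as BMP6 (control mean 0.49 CPM in COAD and 0.64 in PAAD) and HEPH (0.58 in PAAD). At an unadjusted p under 0.05 in edgeR, 0 of these genes passed in COAD and in TNBC and 1 in PAAD and in PRAD. CP, ceruloplasmin, the copper oxidase that works with ferroportin, fell in PAAD from 119 to 126 CPM in control to 74.0 to 81.7 CPM in Ocoxin libraries (log2 fold change -0.66, SE 0.06, adjusted p = 4.26e-06, edgeR). In TNBC, where CP was at 962 to 1197 CPM in control, its log2 fold change was -0.03 (SE 0.15, adjusted p = 0.925), and it was at 1.18 CPM or less in every COAD and PRAD library. HFE, a partner of the transferrin receptor, was altered in PRAD (0.59, SE 0.12, adjusted p = 0.0413), a call that was lost in DESeq2 and with each library left out (adjusted p 0.0514 to 0.155).

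In the uptake and reduction list, no gene passed in edgeR in COAD, PAAD or PRAD (3, 3 and 2 at an unadjusted p under 0.05, and 0 in DESeq2 in each), and in TNBC STEAP1 (0.26) and CYBRD1 (0.13) rose and STEAP4 (-0.22) fell. CYBRD1 and STEAP4 encode metalloreductases that turn ferric into ferrous iron, and STEAP1 belongs to the same family as STEAP4. Of these calls, CYBRD1 was lost with each library left out (adjusted p 0.0612 to 0.163), STEAP1 was lost without the Ocoxin library of replicate 1 (0.0691) or 2 (0.0736), and STEAP4 stood in all 6 such fits. Of the 10 genes of mitochondrial iron and iron-sulfur assembly, SLC25A37, the mitochondrial iron importer mitoferrin-1, fell in TNBC (-0.31, SE 0.06, adjusted p = 0.00337) and PRAD (-0.21, SE 0.04, adjusted p = 0.0341), and in TNBC CISD2 fell (-0.27) while SLC25A28, mitoferrin-2, rose (0.33). The call of SLC25A37 in PRAD stood in 1 of 6 fits with a library left out, the one without the Ocoxin library of replicate 3, and the others gave adjusted p values of 0.0560 to 0.155. In COAD and PAAD no gene of this list passed in edgeR (2 and 1 at an unadjusted p under 0.05, and 0 in DESeq2 in each). PCBP1 and PCBP2, the chaperones that hand iron to ferritin, did not pass in edgeR in any line.

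Heme handling contributed HMOX1, which frees iron from heme. It rose in PRAD (log2 fold change 1.82, SE 0.26, adjusted p = 0.0201), COAD (0.74, SE 0.16, adjusted p = 0.0143) and TNBC (0.31, SE 0.07, adjusted p = 0.00605) by edgeR, and was 0.69 higher in PAAD (SE 0.21, adjusted p = 0.0521, and 0.00280 with the block). In PRAD its control libraries held 19.7 to 23.3 CPM and its Ocoxin libraries 46.8 to 99.3 CPM. The PRAD call was lost without the control library of replicate 1, 2 or 3 or the Ocoxin library of replicate 2 (adjusted p 0.0560 to 0.0967), and the COAD call without the control library of replicate 1 (0.10). In TNBC, FLVCR1, a heme exporter (0.37), and FECH, which inserts iron into heme (0.17), rose as well, and BLVRB, a biliverdin reductase, fell (-0.43, SE 0.05, adjusted p = 9.53e-05). SLC48A1, a heme transporter of lysosomes, rose in PAAD (0.31) and PRAD (0.49). The PAAD call was lost without the Ocoxin library of replicate 1 (adjusted p = 0.142) or 2 (0.0647) or the control library of replicate 2 (0.138), and the PRAD call stood in 1 of 6 such fits, the one without the Ocoxin library of replicate 3 (the others 0.0590 to 0.0992). FECH was lost without the Ocoxin library of replicate 1 (0.0618).

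Of the 14 other guards against ferroptosis, those altered in PAAD were SLC7A11, SLC3A2 and GCLC, and those in PRAD SLC7A11 and GCLM, all higher. In TNBC 4 were higher (SLC7A11, GCLC, GCLM and ACSL3) and 1 was lower (MBOAT2), while in COAD none passed in edgeR (5 at an unadjusted p under 0.05, and 1 in DESeq2). SLC7A11, the cystine importer that feeds glutathione synthesis, had log2 fold changes of 0.60 (SE 0.07, adjusted p = 3.35e-05) in PAAD, 0.75 (SE 0.12, adjusted p = 0.0250) in PRAD and 0.70 (SE 0.07, adjusted p = 2.87e-05) in TNBC. The PRAD call of SLC7A11 was lost without the Ocoxin library of replicate 1 (0.0732) or 2 (0.106) or the control library of replicate 2 (0.0826). That of GCLM was lost without the Ocoxin library of replicate 2 (0.0880) or the control library of replicate 2 (0.0770) or 3 (0.0531). In TNBC, ACSL3 was lost without the Ocoxin library of replicate 2 (0.101) or 3 (0.0811) or the control library of replicate 1 (0.0852) or 2 (0.138). Of the drivers, CHAC1, which degrades glutathione, rose in all 4 lines, by 0.65, 1.38, 1.03 and 0.21 on the log2 scale in COAD, PAAD, PRAD and TNBC. The COAD call of CHAC1 was lost without the control library of replicate 1 (adjusted p = 0.0887) or the Ocoxin library of replicate 2 (0.0502), and the PRAD call without the Ocoxin library of replicate 2 (0.0880), and the TNBC call without the Ocoxin library of replicate 1 (0.132) or 2 (0.0674) or the control library of replicate 1 (0.0792) or 3 (0.101). AGPS, an enzyme of ether lipid synthesis, rose in PRAD (0.32), a call lost with each library left out (adjusted p 0.0508 to 0.15). SAT1, a polyamine acetyltransferase, fell in PAAD (-0.46, SE 0.06, adjusted p = 0.000102).

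**Figure D5:**
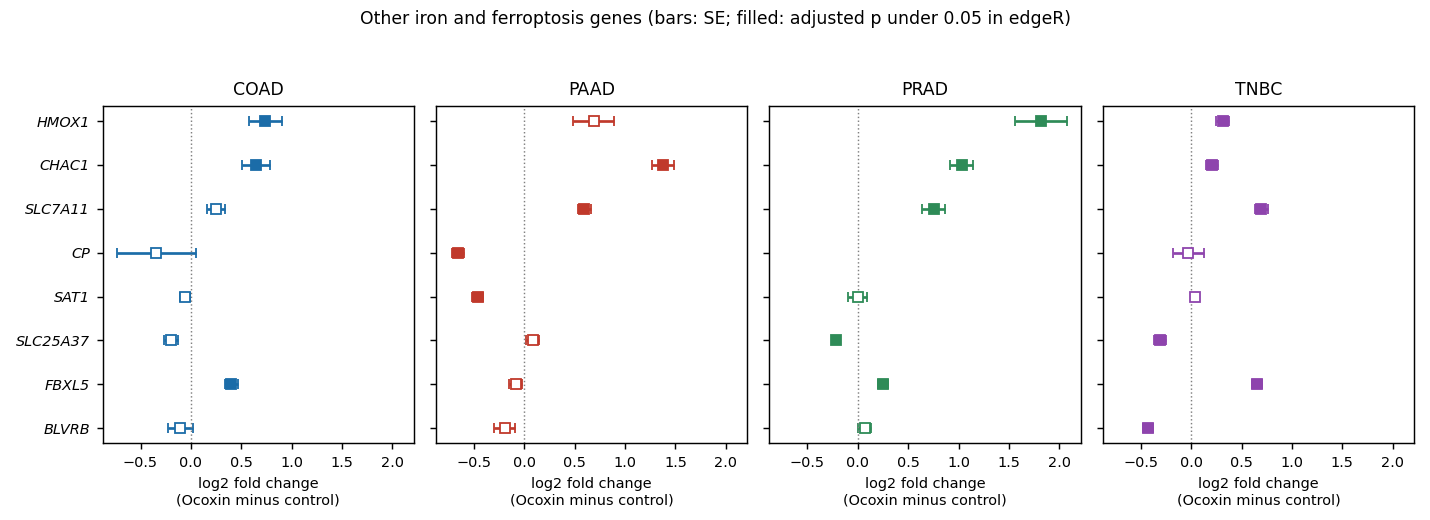
Log2 fold change (Ocoxin minus control) with SE of 8 genes of the iron and ferroptosis lists that were named by size of change, in each line. Filled squares passed an adjusted p of 0.05 in edgeR. FBXL5 is filled in COAD, PRAD and TNBC, CP in PAAD, and CP is missing in PRAD, where it was too low to be tested.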

How the data were processed

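RNA of 24 libraries was sequenced by the authors from stranded mRNA libraries. Per their methods and the file headers, trimming was done with fastp, alignment to hg38 with STAR and duplicate removal with picard, and reads on exons were counted with featureCounts 2.0.3. The deposited values are whole, unnormalized counts per gene. PRAD was counted in its own run without the paired-end option. Neither run used the strand, so reads over exons of 2 genes were dropped, and 1 primary place of reads that map to several places was counted, which makes FTH1 uncertain beside its pseudogenes.

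Groups came from the letters in the titles, since the labels give a dilution for controls too. The members and gene lists were chosen with earlier results of these data known. All 10 genes are reported. From the lists, the 2 genes that rose most and the 2 that fell most among those altered in each line (mean of at least 1 CPM) were named, and others to resolve counts. FBXL5 in COAD and PRAD, HFE and further list genes were named after their values were seen.

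Each line was fitted alone with edgeR 4.0.16 in R 4.3.3 (filterByExpr, TMM, robust quasi-likelihood F-test, two-sided, Benjamini-Hochberg over all genes, threshold 0.05). Levels were compared in a fit of the 9 control libraries of COAD, PAAD and TNBC, and responses in a fit of their 18 libraries. Alternatives were DESeq2 1.42.0, its size factors, other filters (none, or 10 counts in every library), the replicate block, each library left out, all 24 libraries in 1 fit, a threshold of 0.01, a change of 1.5-fold, a trend with length and GC content removed (spline, 5 degrees of freedom), pseudogene counts added, counts halved and, for PRAD, a correction for reads with the same start. The scripts were tested on simulated counts. Replicate numbers paired the libraries in PAAD, PRAD and TNBC, where the deviations of each same-numbered pair correlated by 0.177 to 0.633, and not in COAD, where the pairs gave 0.408, 0.0870 and 0.507 and every pair had to exceed 0.1. No libraries of a group agreed within sampling noise (chi-square per degree of freedom 1.75 or more).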

Additional observations from a re-analysis of the deposited data

Results flagged for a closer look

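SLC40A1, the iron exporter ferroportin, stood out because it moved in opposite directions in different lines with no overlap between groups. Its log2 fold change was 0.67 in PRAD, where every Ocoxin library lay above every control (27.5% of genes with a mean of at least 1 CPM had groups without overlap there), and -0.37 in PAAD, where every Ocoxin library lay below every control (30.1% of such genes had groups without overlap). The PRAD change did not pass edgeR without the replicate block (adjusted p = 0.0732). The call in PAAD was lost without the control library of replicate 1 (adjusted p = 0.0952) or the Ocoxin library of replicate 1 (0.0987) or 2 (0.0862). An interaction term over the 24 libraries together, added after the data had been seen, gave a difference of 1.01 (SE 0.19, adjusted p = 0.00122, edgeR). With the PRAD counts corrected for reads with the same start it was 1.03 (SE 0.19, adjusted p = 0.000831). The PRAD libraries held 40 to 81 counts of this gene.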

How the results depend on the processing

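The limits are the small groups, the low counts of SLC40A1 and FTH1 in PRAD, and the reads of FTH1 shared with BEST1 or its pseudogenes. The count of the 10 genes altered in COAD, 1 by edgeR, was 2 with DESeq2, 2 with no filter, 2 with pseudogene counts added, 3 with the replicate block, 0 at an adjusted p under 0.01, 0 with a 1.5-fold minimum and 0 to 3 with a library left out. In PAAD, 2 became 5 with the block, 4 with all 24 libraries in 1 fit, 1 at 0.01, 0 with the 1.5-fold minimum and 1 to 3 with a library left out. In PRAD, 0 became 1 with DESeq2, 3 with no filter, 2 with the block, 2 with the length and GC trend removed and 3 with 24 libraries. In TNBC, 1 became 3 with no filter, 2 with at least 10 counts, 5 with the block, 3 with the trend removed, 2 with counts halved, 2 with 24 libraries, 0 with the 1.5-fold minimum and 1 to 2 with a library left out. Of the differences in response, 0 became 1 (DESeq2), 3 (block) and 0 to 2 (a library left out) for COAD and PAAD, 2 (block) for COAD and TNBC, and 2 (DESeq2), 1 (no filter), 5 (block) and 0 to 1 (a library left out) for PAAD and TNBC. The block moved the share of all genes altered in COAD from 2.55% to 10.9%, where the numbers did not pair the libraries and FTH1, FTL and GPX4 passed with it (adjusted p = 0.00635, 0.000275 and 0.0114). The causes were not tested.

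Small log2 values changed sign. With the trend removed, ACSL4 in COAD was 0.013, TFRC in PAAD 0.0025, GPX4 in PAAD -0.078, IREB2 in TNBC -0.044 and GPX4 in TNBC 0.0037. GPX4 in PRAD was 0.0047 with at least 10 counts and 0.00035 with the block. With 24 libraries in 1 fit, AIFM2 in PRAD was -0.0073 and NCOA4 in TNBC -0.0049. The response of AIFM2 in COAD minus TNBC was 0.0071 with DESeq2 and 0.0080 with its size factors.
With a library left out, log2 fold changes that changed sign were SLC40A1 in COAD (-0.070 to 0.067), AIFM2 in COAD (-0.061 to 0.0063), ACSL4 in COAD (-0.029 to 0.032), TFRC in PAAD (-0.068 to 0.021), IREB2 in PAAD (-0.12 to 0.019), GPX4 in PAAD (-0.12 to 0.11), ACSL4 in PAAD (-0.021 to 0.069), GPX4 in PRAD (-0.048 to 0.011), AIFM2 in PRAD (-0.033 to 0.063), NCOA4 in TNBC (-0.018 to 0.026), IREB2 in TNBC (-0.036 to 0.055) and AIFM2 in TNBC (-0.017 to 0.0058). Control differences COAD minus PAAD that did were FTH1 (-0.041 to 0.17) and IREB2 (-0.088 to 0.042), and differences in response IREB2 in COAD minus PAAD (-0.13 to 0.0081), ACSL4 in COAD minus PAAD (-0.078 to 0.0092), NCOA4 in COAD minus TNBC (-0.0078 to 0.11), SLC40A1 in COAD minus TNBC (-0.033 to 0.12), AIFM2 in COAD minus TNBC (-0.056 to 0.0086), FTL in PAAD minus TNBC (-0.033 to 0.078), IREB2 in PAAD minus TNBC (-0.13 to 0.011) and GPX4 in PAAD minus TNBC (-0.011 to 0.22).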
